A study of Homo sapiens with 16 samples.

Results

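Long intergenic noncoding RNA (lincRNA) genes were followed in IMR32, a human neuroblastoma cell line, by RNA sequencing of polyadenylated RNA. A gene was taken when the count table gave its biotype as lincRNA and its mean raw count over the 16 libraries was at least 20. MYCNOS, genes whose names begin with SNHG, GAS5, ZFAS1, DANCR and EPB41L4A-AS1 were left out by name, which removed 7 genes. This left 935 genes, out of 7629 lincRNA rows and 58735 genes in the table, and 2940 of the lincRNA rows had no count in any library. The genes were chosen by this mean count, which is given here only as a description. Cells were kept for 24 h in 1.25 µM indisulam and 4 µM alectinib together, in 1.25 µM indisulam, in 4 µM alectinib, or in DMSO, the vehicle of all groups, with 4 libraries in each group. All cells were labelled wild type. Indisulam is a sulphonamide that recruits RBM39, a splicing factor, to the DCAF15 ubiquitin ligase for degradation, and alectinib is an inhibitor of the ALK kinase. The series title names alectinib and RBM39 degraders, so the comparisons ask what each drug and the pair do to the transcriptome. One cell line was used, and nothing in the labels says whether the 4 libraries of a group came from separate cultures, so p-values measure only the spread between these libraries.

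A lincRNA gene is transcribed by RNA polymerase II between protein-coding genes, and its RNA is capped, often spliced and usually polyadenylated, but carries no long open reading frame. Some lincRNAs act in the nucleus as scaffolds (NEAT1 for paraspeckles, MALAT1 in nuclear speckles), some bind proteins in the cytoplasm (NORAD binds PUMILIO proteins), and others serve mainly as the precursor of a microRNA. Several are known targets of p53, and in neuroblastoma a sense and antisense pair of lincRNAs, CASC15 and NBAT1, lies at a susceptibility locus on chromosome 6. MALAT1 and the long form of NEAT1 end without a poly(A) tail, so libraries of polyadenylated RNA can undercount them.

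Exonic length ranged from 154 to 28487 bases with a median of 1792. One annotated exon was present in 347 genes and 2 or more in 588. The label was checked against GENCODE 29, in which start, end, strand, exonic length and biotype were those of the table for all 58735 genes. An exon of another gene overlapped an exon of 241 of the 935 genes, so these are not strictly intergenic, and because the sources used here do not say whether strand was used in counting, their counts cannot be separated with certainty from those of the overlapping gene. Among them are NEAT1, TP53TG1, DRAIC, LINC00574, LINC01833, LINC01089 and MIR29B2CHG, for which the overlap is not repeated below. The most abundant pair, FP236383.3 and FP236383.2 on chromosome 21, lies inside RefSeq's 18S ribosomal RNA genes RNA18SN1 and RNA18SN3, and the pair is therefore described by name and not as lincRNA. In bulk RNA, fewer cells of a kind and less RNA per cell cannot be told apart.

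The 3 promoters shown were chosen among genes that rose in the combination for holding a p53 response element in the window searched. They do not stand for the p53-linked genes described below. RefSeq (GRCh38.p14) gave 300-base promoters, from 250 bases before the start to 50 after it, for 205 of the 935 genes. The PURPL promoter is chr5:27472042-27472341 on the plus strand, with RefSeq and GENCODE starts at the same base. The LINC02051 promoter is chr3:186476233-186476532 on the plus strand, and its RefSeq start is 244 bases from that of GENCODE. The LNCTAM34A promoter is chr1:9181954-9182253 on the plus strand, and its RefSeq start is 200 bases from that of GENCODE. Capitals mark the p53 element, which covers bases 127 to 108 before the start in PURPL, 65 to 46 in LINC02051 and 60 to 41 in LNCTAM34A.
PURPL: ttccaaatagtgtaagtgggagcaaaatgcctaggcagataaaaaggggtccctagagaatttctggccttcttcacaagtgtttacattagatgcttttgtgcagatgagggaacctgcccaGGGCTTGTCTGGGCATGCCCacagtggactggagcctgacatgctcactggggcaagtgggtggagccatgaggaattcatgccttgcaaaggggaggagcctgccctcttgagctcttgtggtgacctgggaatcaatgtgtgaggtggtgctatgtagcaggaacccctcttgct
LINC02051: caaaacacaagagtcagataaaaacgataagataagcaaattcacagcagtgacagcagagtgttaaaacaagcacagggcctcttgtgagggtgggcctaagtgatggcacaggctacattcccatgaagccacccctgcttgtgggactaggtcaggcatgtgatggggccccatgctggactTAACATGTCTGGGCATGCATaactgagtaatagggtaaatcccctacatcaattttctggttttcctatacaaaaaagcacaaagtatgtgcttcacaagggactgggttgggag
LNCTAM34A: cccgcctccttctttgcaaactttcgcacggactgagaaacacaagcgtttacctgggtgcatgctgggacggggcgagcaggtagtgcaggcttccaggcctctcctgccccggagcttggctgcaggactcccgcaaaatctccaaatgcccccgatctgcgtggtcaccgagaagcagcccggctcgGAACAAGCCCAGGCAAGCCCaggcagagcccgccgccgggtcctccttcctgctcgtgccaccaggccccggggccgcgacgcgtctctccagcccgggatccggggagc

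The p53 element was searched as a pair of 10-base sites, with at most 13 bases between them, at most 2 mismatches over both and the core C and G of each site kept. It was found in 7 of the 205 promoters (3.41%), beside 2.93% of 35116 RefSeq promoters of the same length. The other 4 were LINC00667, LINC01560, LINC00526 and IBA57-DT. Of the p53-linked list described below, PURPL held the element, while the promoters of MIR34AHG, TP53TG1, NORAD and MEG3 did not. The RefSeq start of MIR34AHG is 16568 bases from that of GENCODE, and that of MEG3 46698 bases. Of the promoters with a sequence, 62 belonged to genes called higher in the combination, and 5 of these held the element, while 0 of 58 promoters of genes called lower did. In indisulam, 2 of 30 promoters of genes called higher and 1 of 52 of genes called lower held it, and in alectinib 3 of 38 and 0 of 2. A match is a description of the letters and not a bound site. Other motifs were sought on both strands. CCAAT was in 36.6% of the 205 promoters and 34.6% of all, TATAAA in 10.7% and 11.5%, CACGTG in 12.7% and 7.26%, CATGTG in 15.1% and 11.1%, TGACGTCA in 1.95% and 1.85%, GAANNTTC in 3.9% and 6.77%, and TGAGTCA in 5.37% and 4.95%.

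Several of the genes carry a microRNA within their span. The mature sequences are shown for 10 host genes described below, from RefSeq on GRCh38.p14, with the seed (bases 2 to 8) in capitals. No seed is shared among them.
hsa-miR-34a-5p: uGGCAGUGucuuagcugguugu
hsa-miR-22-3p: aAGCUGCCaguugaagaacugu
hsa-miR-155-5p: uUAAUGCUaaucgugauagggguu
hsa-miR-210-3p: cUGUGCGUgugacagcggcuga
hsa-miR-9-5p: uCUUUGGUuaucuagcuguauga
hsa-miR-99a-5p: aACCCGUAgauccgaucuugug
hsa-let-7b-5p: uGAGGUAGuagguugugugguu
hsa-miR-503-5p: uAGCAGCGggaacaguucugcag
hsa-miR-137-3p: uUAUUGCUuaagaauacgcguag
hsa-miR-29c-3p: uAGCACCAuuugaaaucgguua
Their hosts are, in the same order, MIR34AHG, MIR22HG, MIR155HG, MIR210HG, MIR9-3HG, MIR99AHG, MIRLET7BHG, MIR503HG, MIR137HG and MIR29B2CHG. The libraries measured the host transcripts and not the mature microRNAs.

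Most lincRNA genes were scarce. In DMSO the median level was 0.907 CPM (counts scaled to a library total of 1000000, with TMM factors), 429 genes averaged at least 1 CPM and 78 at least 10 CPM. Per kb of exon, the highest level in DMSO was that of FP236383.3 at 2161 ± 946 CPM per kb (SD, n = 4) and the next that of FP236383.2 at 950 ± 369 CPM per kb. AC011897.1, a short transcript near FAM84A, came next at 274 ± 5.72 CPM per kb, above MALAT1 at 197 ± 24.0 CPM per kb. NORAD had 87.1 ± 2.43 CPM per kb, MEG3 42.3 ± 9.92, LINC00682 30.3 ± 1.86, LINC01798 30.0 ± 1.72, LINC02268 29.2 ± 1.82 and LINC01976 26.4 ± 1.79. LINC00682, LINC01798 and LINC02268 differ from each other by less than their SDs. The 935 genes took 0.955% ± 0.073 of all counts in the combination, 0.932% ± 0.037 in indisulam and 1.09% ± 0.053 in alectinib, against 0.947% ± 0.150 in DMSO (SD, n = 4 each). The ribosomal pair alone took between 0.117% and 0.393% of a library. Without the pair, the shares were 0.699% in the combination, 0.646% in indisulam and 0.796% in alectinib, against 0.664% in DMSO. The remaining lincRNA genes, without the pair, MALAT1, MEG3, NORAD and MIAT, took 0.368% to 0.395% in the alectinib libraries. In the DMSO libraries they took 0.313% to 0.347%, with no overlap.

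Depth was 55080768 to 63740239 counts in 15 libraries and 90237379 counts in alectinib replicate 1. A count was present for 2564 to 2706 lincRNA rows of a combination library, 2338 to 2469 of an indisulam library, 2658 to 3044 of an alectinib library and 2447 to 2558 of a DMSO library, the highest being the deepest library. The summed level of 9 adrenergic neuroblastoma markers, among them PHOX2A, HAND2, GATA3 and MYCN, was 2467 to 2965 CPM in the combination, 4313 to 4840 CPM in indisulam and 3338 to 3781 CPM in alectinib, against 4265 to 4715 CPM in DMSO. MYCN was the largest part, with means of 1294, 2438 and 1793 CPM in the same treatments, against 2443 CPM in DMSO. In the combination every marker of the 9 averaged below DMSO except GATA3, at 267 against 263 CPM. Summed levels of 6 fibroblast markers were 15.3 to 17.9, 25.6 to 28.2 and 20.2 to 25.7 CPM in the same treatments, against 33.9 to 37.9 CPM in DMSO, mostly PDGFRB. Epithelial, blood and endothelial lists each stayed at or under 2.34 CPM, with KRT18 and CD3E at 0 in every library.

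All 935 genes passed the filter on low counts and were tested among 22433 genes with edgeR's quasi-likelihood test, and a gene was called when its Benjamini-Hochberg adjusted p was under 0.05. In the combination, 266 lincRNA genes were called higher and 208 lower than in DMSO, 50.7% in all, beside 60.3% of all tested genes (29.7% higher, 30.6% lower). In indisulam, 163 were higher and 223 lower, 41.3% in all, beside 47.8% of all tested genes (23% higher, 24.8% lower). In alectinib, 171 were higher and 13 lower, 19.7% in all, beside 22.3% of all tested genes. The alectinib calls were divided otherwise than those of all genes, of which 9.99% were higher and 12.3% lower, whereas 18.3% of lincRNA genes were higher and 1.39% lower. The combination differed from indisulam in 32.2% of lincRNA genes (217 higher, 84 lower) beside 39% of all genes (18.9% higher, 20.1% lower). It differed from alectinib in 46.4% (175 higher, 259 lower) beside 55.5% of all genes (26.5% higher, 29% lower). A change of at least 2-fold was called higher in 155 and lower in 112 lincRNA genes in the combination, 16.6% and 12% of them, beside 11.7% and 11.2% of all genes. All of these counts include 121 genes with a mean under a count of 20 in DMSO, which entered through other groups.

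The median log2 fold change of the 935 genes against DMSO was 0.10 in the combination, -0.13 in indisulam and 0.24 in alectinib, beside 0.01, -0.01 and 0.01 over all tested genes. It was 0.24 for the combination against indisulam and -0.17 against alectinib, beside 0.01 and -0.04. The 121 genes whose mean in DMSO was under a count of 20 entered through other groups, and with the remaining 814 genes the median was -0.03 in the combination, -0.18 in indisulam and 0.20 in alectinib. With DMSO replicate 4 left out the combination median was 0.04, and with DMSO replicate 1 left out the indisulam median was -0.08. On log2(CPM + 0.5), the median deviation of the lincRNA genes from the DMSO mean was 0.14 to 0.20 in the alectinib libraries and -0.02 to 0.05 in the DMSO libraries, while for other tested genes it was -0.01 to 0.01 in both. Other classes of noncoding gene also moved up in alectinib. The median log2 fold change there was 0.25 for 2101 antisense genes (260 higher, 36 lower) and 0.27 for 405 genes of the TEC class, loci to be experimentally tested (54 higher, 5 lower), against -0.04 for 14728 protein-coding genes (1390 higher, 2639 lower). In indisulam the medians were 0.09 for antisense genes and 0.39 for 379 sense intronic genes, but -0.13 for 254 processed transcripts (45 higher, 64 lower), against -0.05 for protein-coding genes. The TMM factors of the alectinib libraries were 1.03 to 1.06, against 0.97 to 1.01 in DMSO, and their part in the alectinib medians was not tested.

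**Figure D1:**
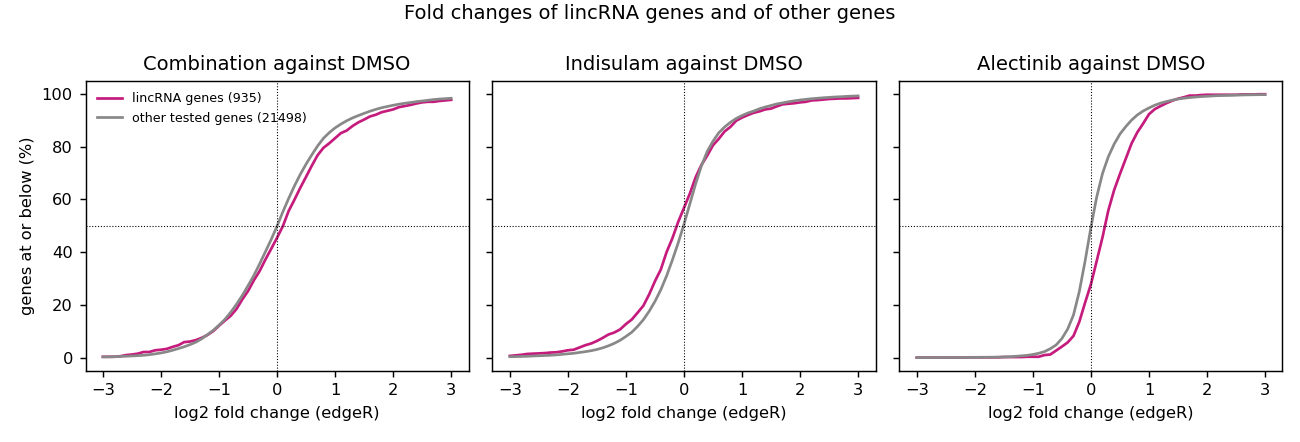
Cumulative share of genes (%) against log2 fold change for the 935 lincRNA genes and the 21498 other tested genes, for the combination, indisulam and alectinib against DMSO, with dotted lines at 50% and at 0. In alectinib the lincRNA curve lies to the right of the other genes along most of its length, with a median of 0.24, while in indisulam below the 50% line it lies to the left and its median is -0.13.

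The genes ranked by size below are called genes with a mean of at least 0.5 CPM and no overlap between the groups compared, except that the interaction has no overlap condition, and some genes outside these limits had larger fitted changes. Within these limits, the largest rises in indisulam were in genes that were nearly silent in DMSO. All 6 of these had a mean under a count of 20 in DMSO, so they entered the set through groups where they were higher. Their rise was therefore bound up with their selection. This holds too for the genes named below for the largest rises in alectinib and the combination. It also holds for MIR155HG, FOXD2-AS1, AL390957.1 and AL109976.1, whose raw counts in DMSO summed to 34, 50, 65 and 40 over the 4 libraries. LINC02073, a 5-exon gene at chr17:51336715-51445802 on the plus strand, had 2.03, 1.64, 2.05 and 1.14 CPM in indisulam, against 0, 0.0899, 0 and 0.0174 CPM in DMSO. The raw counts summed to 412 in indisulam and 6 in DMSO. The log2 fold change was 5.91 ± 0.47 (SE, adjusted p = 4.34e-10), and no indisulam library overlapped a DMSO library. DMSO replicate 2 held 5 of the 6 DMSO counts, and without it the log2 fold change was 7.77. LINC02071 starts 1550 bases away on the other strand of the same locus and had 1.19, 0.829, 1.60 and 1.26 CPM in indisulam, against 0, 0.0539, 0.0712 and 0 CPM in DMSO, a log2 fold change of 5.21 ± 0.62 (adjusted p = 2.37e-07), or 5.97 without DMSO replicate 3. Its exons overlap AC005823.2. No coding gene starts within 5 kb of either gene, and the nearest, UTP18, lies 38779 and 14673 bases away. AL162431.1, near KIAA1614, rose by 4.90 ± 0.49 on the log2 scale and LINC00222, 66880 bases from FOXO3, by 4.57 ± 0.42. AL160290.1, 238715 bases from GPR26, rose by 4.21 ± 0.42. AL732292.2, a 1-exon gene that begins 4727 bases downstream of TOMM20, which encodes a mitochondrial import receptor, rose by 3.92 ± 0.32 while TOMM20 itself rose by 0.67 ± 0.06 (adjusted p = 1.8e-09). In none of these 6 genes did the indisulam libraries overlap those of DMSO, a condition of the rule that named them.

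Within the same limits, the falls were led by genes of low to moderate level. PSMG3-AS1, a 6-exon gene whose exons overlap those of PSMG3 on the other strand, had 0.757, 0.559, 0.925 and 0.644 CPM in indisulam, against 8.80, 7.82, 6.14 and 8.67 CPM in DMSO. Its log2 fold change was -3.44 ± 0.18 (adjusted p = 5.61e-13). In alectinib the same gene had 11.8, 13.7, 15.2 and 14.8 CPM, above every DMSO library, a log2 fold change of 0.82 ± 0.15 (adjusted p = 0.000279). AP001781.1, which starts 3845 bases downstream of ALG9, an enzyme of N-glycan assembly, had 0.0483, 0.0360, 0.0826 and 0.0322 CPM in indisulam, against 0.836, 0.503, 0.694 and 0.887 CPM in DMSO (log2 fold change -3.82 ± 0.37). ALG9 fell by 0.96 ± 0.08 in the same comparison. AC012313.8, divergent from ZNF132 at 226 bases, fell by 2.90 ± 0.45 while ZNF132 rose by 0.66 ± 0.07, so both genes of this pair moved, in opposite directions. AP000345.2 fell by 2.89 ± 0.47, with 21 of its 32 indisulam counts in replicate 2, and was at -4.05 without that library. LINC00574 fell by 2.80 ± 0.31. LINC01291 had 1.06, 0.847, 1.72 and 1.34 CPM in indisulam, against 8.15, 7.98, 7.72 and 8.87 CPM in DMSO, a log2 fold change of -2.72 ± 0.21. AC011897.1, the third most abundant gene per kb, fell by 1.13 ± 0.07 to 43.2 ± 2.6 CPM in indisulam, against 94.8 ± 2.0 CPM in DMSO (SD, n = 4 each, adjusted p = 1.67e-11).

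**Figure D2:**
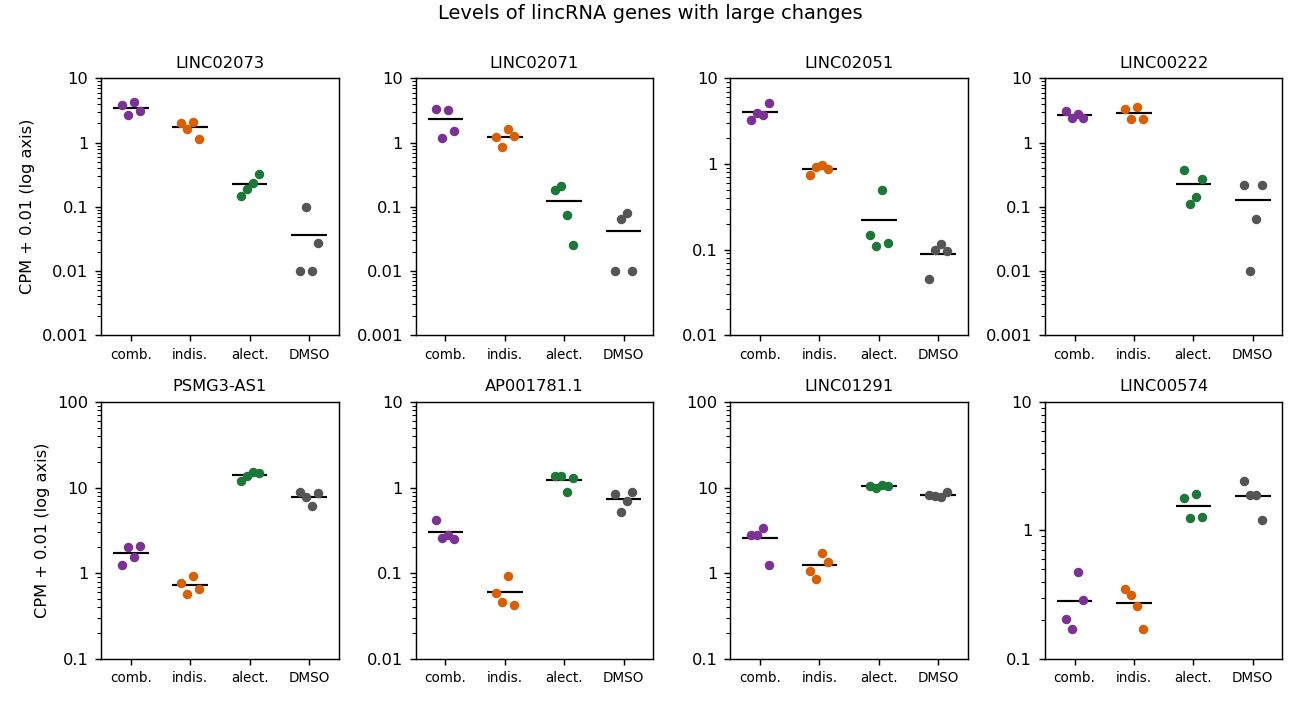
CPM + 0.01 on a log axis in each of the 4 libraries of the combination, indisulam, alectinib and DMSO (points) with the mean of the 4 (line) for 8 lincRNA genes. The upper row shows LINC02073, LINC02071, LINC02051 and LINC00222, which were at 0.21 CPM or less in every DMSO library, and the lower row PSMG3-AS1, AP001781.1, LINC01291 and LINC00574, lower in indisulam and in the combination than in DMSO.

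Alectinib raised LINC02073 as well, by 2.90 ± 0.60 (adjusted p = 0.00108), to 0.138, 0.182, 0.228 and 0.311 CPM, against at most 0.0899 CPM in DMSO. Without DMSO replicate 2 its log2 fold change was 4.75. The next by size within the same limits was AC125494.2, a 1-exon gene 4355 bases from MLF2. It had 2.10, 1.71, 1.89 and 1.72 CPM in alectinib, against 0.401, 0.342, 0.249 and 0.296 CPM in DMSO, a log2 fold change of 2.52 ± 0.27 (adjusted p = 6.76e-07). No library of one group reached the other. AL096869.1, within the span of TTC7B, rose by 1.84 ± 0.35, and PINCR, an RNA known to be induced by p53, by 1.68 ± 0.34. DRAIC, studied in prostate cancer, rose by 1.61 ± 0.31 and LINC01422 by 1.57 ± 0.39. Falls were few. The 1 called fall of at least 2-fold was that of AL135910.1, by 1.58 ± 0.45 (adjusted p = 0.0139), a gene under the 0.5 CPM minimum that is named after its values were seen. Above that minimum, AC019257.1 fell by 0.88 ± 0.26 (adjusted p = 0.0185), a call that was lost in 3 of 24 alternatives. FAM87A had 1.80, 2.12, 1.89 and 1.63 CPM in alectinib, against 3.73, 4.08, 2.94 and 2.66 CPM in DMSO, a log2 fold change of -0.85 ± 0.21 (adjusted p = 0.00417). AC016205.1 and LINC01799 each fell by 0.85, NKAIN3-IT1 by 0.66 ± 0.20 and AC106895.2 by 0.47 ± 0.11. The NKAIN3-IT1 call was lost when alectinib replicate 2 was left out (adjusted p = 0.0569).

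Alectinib calls were found at all levels and were more frequent at higher levels. The lincRNA genes were divided into 4 classes of equal size by mean CPM over the 16 libraries. Their median log2 fold changes were 0.30, 0.29, 0.26 and 0.16 from the lowest to the highest class. In the same order, 9.83%, 14.1%, 23.2% and 26.1% were called higher and 0.427%, 0.427%, 1.29% and 3.42% lower. Over all tested genes, of every level, 9.99% were higher and 12.3% lower. The highest class held 61 genes called higher and 8 called lower. The 694 genes with no exonic overlap had a median of 0.25 (124 higher, 7 lower) and the 57 that overlap a gene on the same strand 0.11 (10 higher, 2 lower).

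In the combination, LINC02073 had 3.83, 2.66, 4.35 and 3.11 CPM and LINC02071 had 3.35, 1.19, 3.16 and 1.48 CPM, log2 fold changes of 6.93 ± 0.45 and 6.12 ± 0.60 against DMSO. They were 8.79 for LINC02073 without DMSO replicate 2 and 6.89 for LINC02071 without DMSO replicate 3. LINC02073 was also above indisulam alone by 1.02 ± 0.27 (adjusted p = 0.00398), whereas LINC02071 differed from indisulam by 0.91 ± 0.38 (adjusted p = 0.0596). AL162431.1 rose by 6.01 ± 0.47 over DMSO. LINC02051, whose exons overlap LINC02052, had 3.25, 3.95, 3.68 and 5.12 CPM in the combination, 0.725, 0.901, 0.958 and 0.870 CPM in indisulam and 0.138, 0.0994, 0.488 and 0.109 CPM in alectinib, against 0.0348, 0.0899, 0.107 and 0.0870 CPM in DMSO. Its 4 combination libraries lay above every other library, 5.62 ± 0.39 over DMSO and 2.21 ± 0.29 over indisulam (adjusted p = 1.95e-06). AC074050.4, a 1-exon gene 7969 bases from ZNF720, had 4.74, 4.98, 5.40 and 4.54 CPM in the combination and at most 0.122 CPM in DMSO, a log2 fold change of 5.57 ± 0.33. LINC00222 rose by 4.47 ± 0.42 over DMSO and differed from indisulam alone by -0.11 ± 0.30 (adjusted p = 0.818). DRAIC reached 4.83, 3.36, 3.93 and 3.53 CPM in the combination, against at most 0.342 CPM in DMSO, and was 2.02 ± 0.25 above indisulam and 2.50 ± 0.26 above alectinib.

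Within the limits on level and overlap, the largest falls in the combination were those of AC074135.1, which shares exonic bases with ZNF730 on the same strand, by 3.18 ± 0.35, and of LINC00574, by 2.73 ± 0.31. LINC02367 fell by 2.60 ± 0.42 (3.20 without combination replicate 2), AP001362.2, opposite RELA, by 2.57 ± 0.27, AC022784.1, divergent from PPP1R3B at 121 bases, by 2.51 ± 0.35, and AC090044.1 by 2.48 ± 0.32. PPP1R3B itself was at a log2 fold change of 0.22 ± 0.10 (adjusted p = 0.0802). LINC02367 was below both single drugs, by 1.46 ± 0.43 against indisulam and 1.90 ± 0.42 against alectinib. LINC01798, which starts 161 bases downstream of MEIS1, a homeobox transcription factor gene, had 15.9, 16.5, 17.4 and 13.5 CPM in the combination, 25.6, 24.7, 32.0 and 39.4 CPM in indisulam and 51.5, 48.8, 44.8 and 49.7 CPM in alectinib, against 45.7, 49.5, 46.3 and 51.6 CPM in DMSO. The combination fell by 1.61 ± 0.11 against DMSO and MEIS1 by 1.03 ± 0.06 (adjusted p = 1.8e-11 and 2.24e-12).

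Comparisons of the combination with each single drug ask what adding the second drug changed. PSMG3-AS1 had 1.25, 2.00, 1.53 and 2.06 CPM in the combination, 1.24 ± 0.19 above indisulam on the log2 scale (adjusted p = 1.56e-05) and 3.02 ± 0.17 below alectinib. AP001781.1 had 0.404, 0.248, 0.267 and 0.244 CPM in the combination and was 2.49 ± 0.40 above indisulam. Within the limits on level and overlap, the largest rises over indisulam were those of AL390957.1 (2.98 ± 0.31), AL109976.1 (2.61 ± 0.36), AP001781.1 and LNCTAM34A (2.43 ± 0.38). The largest falls below indisulam within these limits were those of AC091196.1 (-1.62 ± 0.26), AC092683.1 (-1.29 ± 0.37), AC005865.1 (-1.28 ± 0.16) and AC105383.1 (-1.16 ± 0.33). Against alectinib the extremes within these limits were AL160290.1 at 4.50 ± 0.43 and PSMG3-AS1 at -3.02 ± 0.17.

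The interaction, the log2 fold change of the combination minus those of both single drugs, tests whether the pair departs from the sum of the drugs. It was called in 54 lincRNA genes, 23 above and 31 below the sum, which is 5.78% beside 13.5% of all tested genes (6.85% above, 6.63% below). DESeq2 called 90. MIR22HG, the host of miR-22, had 5.13, 7.53, 4.35 and 7.87 CPM in the combination, 1.71, 2.34, 1.55 and 2.63 CPM in indisulam and 1.67, 2.25, 1.82 and 2.00 CPM in alectinib, against 1.92, 1.74, 2.06 and 2.23 CPM in DMSO. Neither drug alone was called (0.05 ± 0.20 and -0.04 ± 0.20), the combination was 1.64 ± 0.20 above DMSO, and the interaction was 1.64 ± 0.28 (adjusted p = 0.000475). AL390957.1, whose exons overlap RGS18, had 1.91, 1.31, 1.52 and 1.26 CPM in the combination and 0.348, 0.306, 0.303 and 0.191 CPM in DMSO, with an interaction of 1.97 ± 0.43 (adjusted p = 0.00377). Among called genes with a mean of at least 0.5 CPM, AL138781.1 had the largest positive interaction, 2.16 ± 0.51 (adjusted p = 0.0063), although none of its comparisons with DMSO was called. AP001781.1 stood at 1.75 ± 0.49 (adjusted p = 0.0189), a call that limma-voom did not make (adjusted p = 0.0816).

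Departures below the sum took other forms. AC005865.1, whose exons overlap AC005865.2, had 1.21, 1.15, 1.12 and 0.751 CPM in the combination, 2.61, 2.45, 2.79 and 2.43 CPM in indisulam and 3.60, 4.02, 3.97 and 3.42 CPM in alectinib, against 2.16, 2.00, 2.30 and 2.59 CPM in DMSO. It rose in alectinib (0.73 ± 0.15) and fell in the combination (-1.10 ± 0.16), and its interaction was -2.01 ± 0.22 (adjusted p = 4.81e-06). FOXD2-AS1, 1376 bases from FOXD2 on the other strand, rose in each drug (1.92 ± 0.35 in indisulam, 1.51 ± 0.35 in alectinib) and by no more in the combination (1.47 ± 0.35), an interaction of -1.96 ± 0.47 (adjusted p = 0.00727). Its mean in DMSO was under a count of 20, so these rises were bound up with its selection. AC004023.1 was at -1.79 ± 0.43 and AF067845.4 at -1.78 ± 0.38.

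**Figure D3:**
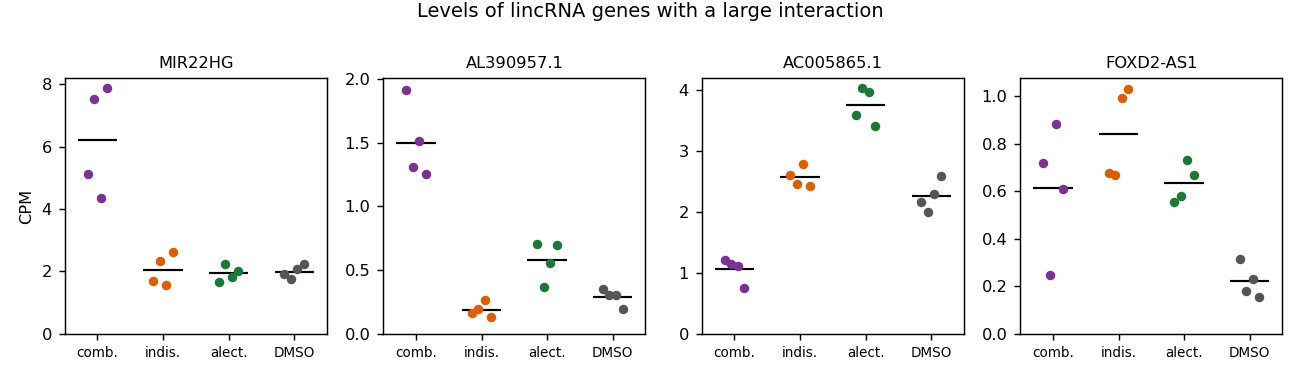
CPM in each of the 4 libraries of the combination, indisulam, alectinib and DMSO (points) with the mean of the 4 (line) for 4 lincRNA genes with a called interaction. For MIR22HG and AL390957.1 every combination library lies above every other library, for AC005865.1 below, and FOXD2-AS1 averages 0.615 CPM in the combination, 0.841 in indisulam and 0.633 in alectinib.

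Most genes with a known link to p53 rose. The list of 12 names held 8 of the lincRNA genes, of which 7 were called higher and 0 lower in the combination, 5 and 0 in indisulam and 5 and 0 in alectinib, beside 29.7%, 23% and 9.99% of all tested genes called higher. The list's median log2 fold change was 1.46, 0.59 and 0.41, beside 0.01, -0.01 and 0.01 over all genes. These counts and medians include PINCR, called higher in each treatment, whose raw counts in DMSO summed to 29. Its mean in DMSO was under a count of 20, so its rise was bound up with its selection. PURPL, a p53 target that lowers basal p53, had 38.7, 20.6, 36.5 and 27.1 CPM in the combination, 17.5, 15.6, 21.6 and 17.8 CPM in indisulam and 14.2, 10.6, 11.2 and 14.0 CPM in alectinib, against 8.19, 6.27, 6.16 and 6.14 CPM in DMSO. It rose by 2.20 ± 0.16, 1.44 ± 0.16 and 0.90 ± 0.16, and every treated library lay above every DMSO library. MIR34AHG, the host of miR-34a, had 35.4, 37.5, 40.6 and 35.7 CPM in the combination, 18.5, 18.7, 17.5 and 19.8 CPM in indisulam and 9.70, 9.26, 9.77 and 8.90 CPM in alectinib, against 7.07, 7.42, 7.74 and 8.13 CPM in DMSO. The 4 groups did not overlap, the combination was 2.30 ± 0.08 above DMSO (adjusted p = 2.63e-16), and the interaction was 0.69 ± 0.11 (adjusted p = 0.00023). LNCTAM34A overlaps MIR34AHG on the other strand, was called only in the combination among the comparisons with DMSO (1.65 ± 0.36), and had an interaction of 1.60 ± 0.53.

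NEAT1, the paraspeckle scaffold, had 19.7, 13.9, 16.6 and 16.9 CPM in the combination, 9.55, 6.25, 8.66 and 8.13 CPM in indisulam and 9.21, 6.87, 7.59 and 6.97 CPM in alectinib, against 5.59, 5.03, 3.83 and 3.46 CPM in DMSO. It rose by 1.90 ± 0.15, 0.86 ± 0.15 and 0.78 ± 0.15. PINCR rose by 3.56 ± 0.32 in the combination and 1.87 ± 0.34 in indisulam. PVT1, beside MYC, rose by 1.01 ± 0.09 in the combination and by 0.28 ± 0.09 in alectinib, the second call being lost in 7 of 24 alternatives. TP53TG1 rose in the combination (1.02 ± 0.20). NORAD, which DNA damage is known to induce, had 737, 775, 738 and 722 CPM in the combination and 583, 582, 559 and 603 CPM in indisulam, against 448, 470, 478 and 463 CPM in DMSO. It rose by 0.68 ± 0.05 and 0.32 ± 0.05, was at -0.12 ± 0.05 in alectinib (adjusted p = 0.0821), and had an interaction of 0.47 ± 0.07 (adjusted p = 0.000132). MEG3 was called in no comparison with DMSO and ranged from 649 to 963 CPM in the combination and from 822 to 1324 CPM in DMSO.

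**Figure D4:**
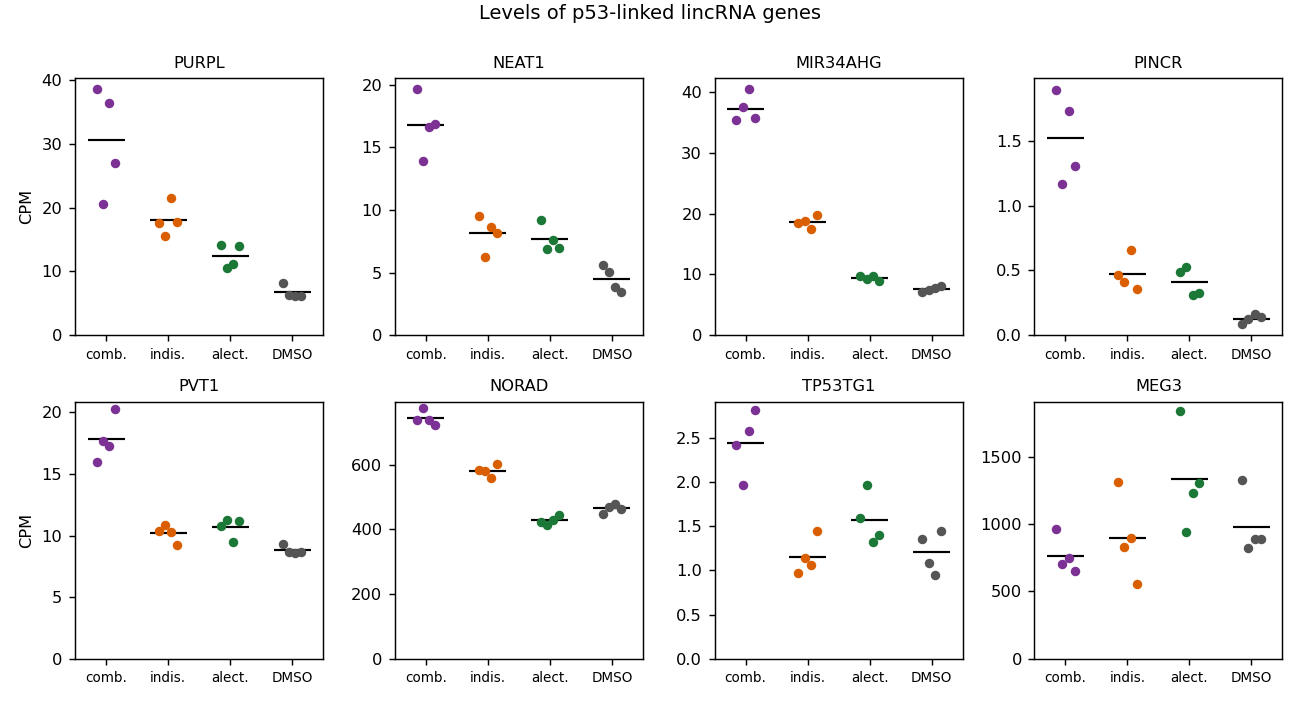
CPM in each of the 4 libraries of the combination, indisulam, alectinib and DMSO (points) with the mean of the 4 (line) for the 8 lincRNA genes of the p53-linked list. In 7 of the 8 the combination is called higher than DMSO, and MIR34AHG shows 4 groups without overlap. The rise of PINCR, under a mean count of 20 in DMSO, was bound up with its selection. MEG3 is not called.

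Of the 7 lincRNA genes listed for nuclear bodies and genome stability, 3 rose and 3 fell in the combination, 2 rose and 1 fell in indisulam, and 2 rose and 0 fell in alectinib. Over all tested genes, 29.7% were higher and 30.6% lower in the combination, 23% and 24.8% in indisulam, and 9.99% and 12.3% in alectinib. MALAT1 ranged from 1717 to 2056 CPM in the combination, 1531 to 1932 CPM in indisulam and 1787 to 2093 CPM in alectinib, against 1464 to 1951 CPM in DMSO. The groups overlapped, and the log2 fold changes of 0.15 ± 0.09, -0.03 ± 0.09 and 0.14 ± 0.09 were not called. MIAT had 144, 151, 128 and 150 CPM in the combination, against 297, 248, 232 and 273 CPM in DMSO, a fall of 0.87 ± 0.09 (adjusted p = 1.07e-08) with no call in either drug alone and an interaction of -0.83 ± 0.13. CRNDE, divergent from IRX5, fell by 0.81 ± 0.10 in the combination and 0.62 ± 0.10 in indisulam. CYTOR rose by 1.73 ± 0.30 in the combination and 0.86 ± 0.30 in alectinib, the second call being lost in 8 of 24 alternatives. BLACAT1 fell by 1.24 ± 0.37 in the combination.

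Of the 18 microRNA hosts, 4 rose and 6 fell in the combination, 4 rose and 7 fell in indisulam, and 2 rose and 1 fell in alectinib. In the combination this is near the 29.7% higher and 30.6% lower of all tested genes. All-gene shares were 23% higher and 24.8% lower in indisulam, and 9.99% and 12.3% in alectinib. MIR155HG rose in each treatment, by 2.77 ± 0.40, 2.31 ± 0.40 and 1.53 ± 0.41, with 1.39, 0.602, 1.30 and 0.838 CPM in the combination against 0.209, 0.0360, 0.142 and 0.209 CPM in DMSO. It is among the hosts counted as higher, but its mean in DMSO was under a count of 20. Its rise was therefore bound up with its selection. MIR4458HG rose by 0.76 ± 0.09 in the combination and 0.46 ± 0.09 in indisulam. MIR9-3HG, whose microRNA acts in neural progenitors, had 40.6, 35.9, 41.7 and 36.3 CPM in the combination and 41.9, 43.6, 45.9 and 40.9 CPM in indisulam, against 79.1, 79.4, 71.6 and 80.0 CPM in DMSO. It fell by 1.00 ± 0.07 and 0.85 ± 0.07 and did not overlap DMSO in either. LINC00599, which holds a copy of miR-124, fell by 0.61 ± 0.08 and 0.49 ± 0.08, and MIR99AHG by 0.71 ± 0.10 and 0.59 ± 0.10. MIR210HG, whose microRNA is known for induction by hypoxia, fell by 2.01 ± 0.50 and 1.81 ± 0.49, although DMSO replicate 1 at 2.32 CPM stood apart from 0.853 to 1.10 CPM in the other DMSO libraries. MIRLET7BHG fell by 0.42 ± 0.12 in the combination, a call lost under upper-quartile scaling, and by 0.54 ± 0.13 in indisulam. MIR137HG rose by 0.43 ± 0.15 in indisulam, a call lost in 3 of 24 alternatives. MIR29B2CHG fell by 0.67 ± 0.22 and MIR7-3HG by 0.95 ± 0.32 in indisulam, both calls being lost when indisulam replicate 4 was left out and the second also without indisulam replicate 2. MIR503HG fell by 0.84 ± 0.21 in the combination and by 0.62 ± 0.21 in alectinib, the second call being lost in 6 of 24 alternatives.

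Among 14 neural and neuroblastoma lincRNA genes, 4 rose and 5 fell in the combination, 4 rose and 6 fell in indisulam, and 3 rose and 0 fell in alectinib, with medians of -0.31, -0.30 and -0.08. The combination counts are near the 29.7% higher and 30.6% lower of all tested genes. In indisulam 23% of all tested genes were higher and 24.8% lower, and in alectinib 9.99% and 12.3%. The summed neuroblastoma markers given above moved in the combination and in alectinib, and their part in these changes was not tested. CASC15 had 37.4, 32.4, 35.2 and 29.3 CPM in the combination, 29.5, 24.0, 23.3 and 21.6 CPM in indisulam and 55.1, 50.6, 58.6 and 50.8 CPM in alectinib, against 41.5, 36.7, 37.6 and 36.1 CPM in DMSO. It fell by 0.63 ± 0.09 in indisulam, rose by 0.50 ± 0.09 in alectinib and was at -0.18 ± 0.09 in the combination (adjusted p = 0.0994). NBAT1, its antisense partner with which it shares exonic bases, rose by 0.83 ± 0.21 in the combination and 0.67 ± 0.21 in alectinib, the second call being lost in 4 of 24 alternatives. MYCNUT, which overlaps the MYCN antisense gene, fell by 1.82 ± 0.39 in indisulam and 1.00 ± 0.37 in the combination, and rose by 0.92 ± 0.33 in alectinib. Of these calls, that in the combination was lost in 4 of 23 alternatives and that in alectinib in 11. LINC01833, near SIX3, fell by 1.61 ± 0.14 in the combination and 0.81 ± 0.14 in indisulam. GATA3-AS1 rose by 0.37 ± 0.11 and 0.44 ± 0.11 and LINC00839 by 0.32 ± 0.08 and 0.36 ± 0.08 in the same comparisons. LINC00682 rose by 0.52 ± 0.07 in indisulam and by 0.19 ± 0.07 in the combination, the second call being lost in 3 of 24 alternatives. LINC01122 fell by 0.91 ± 0.35 in indisulam, lost in 8 of 23 alternatives.

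Of 4 imprinted lincRNA genes, 3 fell and 0 rose in the combination, beside 30.6% lower and 29.7% higher over all tested genes. MEG8 and MEG9, both of the DLK1 and MEG3 locus on chromosome 14, fell by 1.06 ± 0.22 and 1.09 ± 0.23, and PWAR6, of the Prader-Willi region on chromosome 15, by 0.93 ± 0.19. MEG8 had 15.1, 7.47, 10.4 and 9.67 CPM in the combination, against 30.8, 18.6, 23.2 and 16.5 CPM in DMSO, with no overlap. MEG9 also fell in indisulam, by 0.69 ± 0.23, and that call was lost without DMSO replicate 1, indisulam replicate 3 or indisulam replicate 4. MEG3, described above, was not called.

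Of 13 lincRNA genes listed for stress, hypoxia and growth, 6 rose and 3 fell in the combination, 4 rose and 3 fell in indisulam, and 4 rose and 0 fell in alectinib, beside the all-gene shares of 29.7% and 30.6%, 23% and 24.8%, and 9.99% and 12.3%. LINC00941 rose by 1.32 ± 0.20, 0.93 ± 0.20 and 0.98 ± 0.20 in the 3 treatments. LINC00909 had 36.1, 32.7, 40.3 and 32.4 CPM in the combination and 30.1, 29.9, 29.6 and 29.5 CPM in indisulam, against 21.0, 22.6, 22.2 and 22.3 CPM in DMSO, rises of 0.68 ± 0.07 and 0.43 ± 0.07. LINC01089, at 274 bases from SETD1B, rose by 0.34 ± 0.08 and 0.26 ± 0.08. LINC00667 fell by 0.52 ± 0.10 in indisulam and rose by 0.37 ± 0.09 in alectinib. LINC01116 fell by 1.07 ± 0.24 in the combination. LINC00662 fell by 0.35 ± 0.09 in indisulam and 0.25 ± 0.09 in the combination, the second call being lost in 5 of 24 alternatives. LINC00467, LINC00665 and LINC00324 were called in no comparison with DMSO.

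Calls were also counted by exon number, beside all-gene shares of 29.7% higher and 30.6% lower in the combination, 23% and 24.8% in indisulam and 9.99% and 12.3% in alectinib. In the combination, 162 of 588 genes with 2 or more exons were lower (27.6%) and 145 higher (24.7%), while 46 of 347 genes with 1 exon were lower (13.3%) and 121 higher (34.9%). In indisulam, 28.9% of genes with 2 or more exons were lower and 16.2% higher, while 15.3% of genes with 1 exon were lower and 19.6% higher. In alectinib, 1.53% of genes with 2 or more exons were lower and 18.2% higher, and 1.15% of genes with 1 exon were lower and 18.4% higher. Median log2 fold changes of the multi-exon and 1-exon classes were 0.03 and 0.22 in the combination, -0.20 and 0.00 in indisulam and 0.23 and 0.25 in alectinib. The median level was 1.01 CPM in the first class and 0.964 CPM in the second. These are descriptions of the classes, and their difference was not tested.

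**Figure D5:**
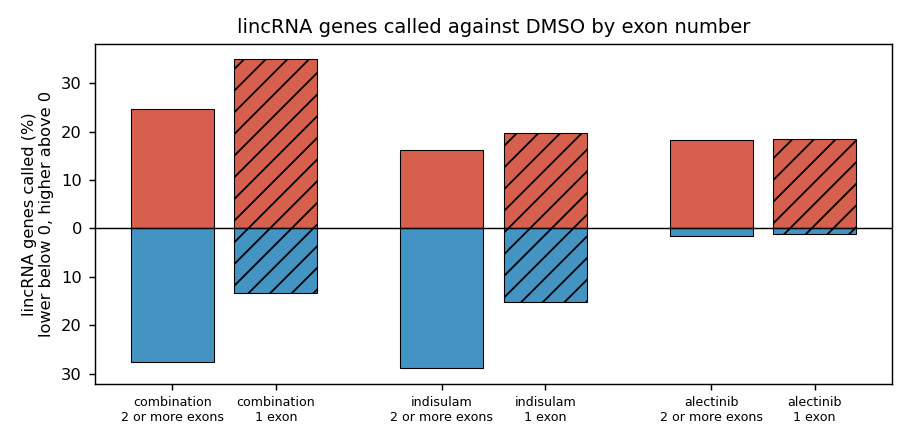
Share of lincRNA genes (%) called higher (above 0) and lower (below 0) than DMSO in the combination, indisulam and alectinib, for 588 genes with 2 or more exons (plain) and 347 with 1 exon (hatched). In the combination and indisulam the plain bars reach further below 0, 27.6% and 28.9% against 13.3% and 15.3%.

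By position, the 241 genes with exonic overlap were set aside first, whatever their neighbours. The other 694 were then divided in the order given. Of these, 168 (divergent) started within 5 kb of a coding gene on the other strand. Of the rest, 141 began within 10 kb downstream of a coding gene on the same strand. Then 94 lay over 50 kb from any coding gene and 291 had another position. Over all tested genes, 24.8% were lower and 23% higher in indisulam, 9.99% higher and 12.3% lower in alectinib, and 29.7% higher and 30.6% lower in the combination. Divergent genes were lower in 22% and higher in 8.93% of cases in indisulam and higher in 22.6% and lower in 0% in alectinib. Downstream genes were higher in 20.6% and lower in 19.9% in indisulam and higher in 19.1% and lower in 0% in alectinib. Isolated genes were the class with the smallest alectinib median, 0.11, and in the combination 26.6% were higher and 31.9% lower. Across 138 downstream pairs with a tested neighbour, the log2 fold change of the lincRNA gene and of its coding neighbour had a Pearson r of 0.367 in the combination, 0.275 in indisulam and 0.248 in alectinib. Across 167 divergent pairs r was 0.233, 0.127 and 0.305. The points are genes of the same libraries and are not independent replicates.

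Among the lincRNA genes themselves, 17 pairs stood head to head. In indisulam both genes were called higher in 4 pairs, both lower in 3 and in opposite directions in 1. These numbers were 4, 2 and 1 in the combination and 0, 0 and 0 in alectinib. Single genes were called higher in 23% and lower in 24.8% of all tested genes in indisulam, 29.7% and 30.6% in the combination, and 9.99% and 12.3% in alectinib. Some pairs overlap in span, so their counts may be shared. Among them are AC006504.5 with LINC00662 and AC092171.5 with AC092171.3, both lower in indisulam. The 2 pairs lower in the combination, AC006504.5 with LINC00662 and PWAR6 with AC124312.2, also overlap. Besides LINC02073 and LINC02071, the pairs in which both were higher were AC127024.2 with AC127024.3 (1.51 ± 0.25 and 1.84 ± 0.36), AC009812.4 with AC009812.3 (1.52 ± 0.32 and 1.65 ± 0.30) and AL021937.4 with RFPL3S (1.45 ± 0.37 and 0.86 ± 0.28). In the opposite pair, AC132872.1 rose by 0.35 ± 0.14 and LINC01970 fell by 1.40 ± 0.46. The names of these pairs were chosen after their values were seen.

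At the edge of the count minimum, the 3 genes just inside were AC107214.2 with a mean of exactly 20 counts and AC003682.1 and AC016737.1 with 20.1, and the 3 lincRNA rows just outside, LINC00954, AC098936.1 and LINC00334, each had 19.9. None of the 3 inside was called against DMSO in any treatment. In 17 genes the mean reached a count of 20 in 1 group only, so that a difference between groups was bound up with their selection.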

How the data were processed

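Polyadenylated RNA of 16 libraries was sequenced as 150 bp pairs on a NovaSeq, per the labels' protocols. The authors deposited 1 table of whole-number raw counts per gene. FastQC 0.11.9, Trimmomatic 0.39, HISAT2 2.2.1, featureCounts 2.0.1 and GRCh38 are named in the submitters' processing notes, and the sources used here do not give settings for strand, pairs and multiply mapped reads. From these counts, edgeR 4.0.16 (R 4.3.3) fitted 1 mean per group over all 16 libraries with TMM scaling, after filterByExpr kept 22433 genes. The quasi-likelihood test had 12 residual degrees of freedom, and p-values were adjusted by Benjamini-Hochberg over all tested genes. Genes left out by the filter held at most 0.0654% of a library's counts. SE is the size of the log2 fold change divided by the square root of F. CPM was TMM-scaled, and fold changes used edgeR's prior count of 0.125. The method was tested on simulated counts. Positions come from GENCODE 29 and sequences from RefSeq.

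Members and lists were chosen with earlier results of these data known. Genes were named by rule: for each treatment against DMSO, the 6 largest called changes in each direction at a mean of at least 0.5 CPM without overlap between the groups, and for other comparisons the 4 largest in each direction, without the overlap condition for the interaction. The 10 highest levels per kb, list members and the 3 genes on each side of the count minimum were also named. Replicate numbers were not used as pairs. No 2 replicates agreed within sampling noise (chi-square per degree of freedom 9.52 to 38.3 over 24 pairs). Alternatives used DESeq2 1.42.0, limma 3.58.1, other scalings and filters, a replicate block and each library left out. A pair of cell type markers is not reported here and was left out of the summed marker levels.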

Additional observations from a re-analysis of the deposited data

Results flagged for a closer look

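In each group of 4 libraries of the 96 named lincRNA genes (384 groups), the gap between the highest or lowest library and its nearest neighbour was divided by the range of the group. A value over 0.830 marks a library far from the others, and chance alone marks about 1 group in 20. It was passed 26 times. DMSO replicate 1 was the high library for MEG9 (0.955), PURPL (0.936), PVT1 (0.931), MEG3 (0.86) and MIR210HG (0.833), with 8.19 CPM for PURPL against 6.27 CPM in the nearest DMSO library and 1324 against 892 CPM for MEG3. Other DMSO libraries stood low for AL096869.1 (replicate 2, 0.961), LINC00667 (replicate 2, 0.903) and MIR9-3HG (replicate 3, 0.893).

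In indisulam, replicate 1 was high for LINC00667 (0.88) and MEG9 (0.845), replicate 4 high for LINC00662 (0.898) and low for AC106895.2 (0.896), replicate 2 low for LINC00324 (0.873) and AL160290.1 (0.866) and high for LINC01976 (0.847), and replicate 3 high for AF067845.4 (0.838). In alectinib, replicate 3 was low for LINC01122 (0.904) and AP001781.1 (0.881) and high for LINC02051 (0.9) and AC012313.8 (0.886), replicate 2 was low for NKAIN3-IT1 (0.892), and replicate 1, the deepest library, was high for MIR29B2CHG (0.852). In the combination, replicate 2 was low for AL096869.1 (0.94) and FP236383.3 (0.847), replicate 3 low for AL109976.1 (0.862) and replicate 1 high for AP001781.1 (0.861).

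The effect of alectinib differed with and without indisulam in 17 of the named genes, by the interaction term of edgeR's quasi-likelihood test. Among them are the genes named for the 4 largest called interactions in each direction, so their calls were fixed by the naming rule. The share called was 5.78% of the 935 genes, beside 13.5% of all tested genes. Positive log2 interactions were those of AL138781.1 (2.16), AL390957.1 (1.97), AP001781.1 (1.75), MIR22HG (1.64), LNCTAM34A (1.60), FAM87A (1.36), MIR34AHG (0.69), PVT1 (0.53) and NORAD (0.47). Negative ones were those of AC005865.1 (-2.01), FOXD2-AS1 (-1.96), AC004023.1 (-1.79), AF067845.4 (-1.78), AL096869.1 (-1.30), LINC01798 (-0.96), MIAT (-0.83) and LINC02268 (-0.66). The smallest adjusted p was 4.81e-06 for AC005865.1 and the largest 0.0455 for LNCTAM34A. FAM87A, lower in alectinib than in DMSO, had 3.02, 5.08, 3.26 and 4.16 CPM in the combination and 3.64, 3.23, 2.03 and 2.05 CPM in indisulam, a difference of 0.50 ± 0.20 that was not called (adjusted p = 0.0509).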

How the results depend on the processing

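Of 141 calls of named genes, 123 held under every one of the up to 24 alternatives that could be fitted, 18 were lost under at least 1 and 0 were reversed. One library moved the fold change by over 1.5 times in 9 of these calls, 7 of them given above with their genes. The other two were those of the combination against alectinib for AL162431.1 (4.36, or 5.22 without alectinib replicate 1) and LINC02051 (4.28, or 5.06 without alectinib replicate 3). Leaving out each library gave shares of lincRNA genes called of 46.6% to 51.1% (combination), 35.8% to 41.9% (indisulam) and 14.5% to 20.6% (alectinib) against DMSO, 27.6% to 32.7% and 42.8% to 47.2% for the combination against indisulam and alectinib, and 4.6% to 7.06% for the interaction. Median log2 fold changes ranged from 0.043 to 0.132, -0.133 to -0.077 and 0.224 to 0.269 against DMSO, and from 0.189 to 0.267, -0.193 to -0.126 and -0.114 to -0.021 for the others in the same order. The interaction share was 9.93% with at least 1 CPM in 4 libraries, 9.63% with DESeq2 and 11.8% among genes with a mean count of at least 100, among which alectinib called 30.6% and the combination against indisulam 51%. Upper-quartile scaling moved the all-gene median to 0.13 in the combination and the lincRNA medians to 0.226 (combination), -0.044 (indisulam) and 0.313 (alectinib). With at least 1 CPM the medians were 0.192 (combination), -0.040 (indisulam) and, for the combination against alectinib, -0.075. At a mean count of at least 100 they were -0.011 (indisulam), 0.198 (alectinib), 0.159 and -0.094 (combination against indisulam and alectinib). With a mean count of at least 20 in DMSO they were -0.034 (combination), -0.184 (indisulam), 0.196 (alectinib) and, for the combination against alectinib, -0.231. The causes were not tested. Shares of counts without FP236383.3 were 0.764% (combination), 0.715%, 0.878% and 0.750% (DMSO), without FP236383.3 and FP236383.2 (an alternative chosen after seeing the data) 0.699%, 0.646%, 0.796% and 0.664%, and over nuclear genes 0.996% in indisulam and 1.16% in alectinib. The replicate block gave 52.3%, 42%, 21.6%, 32.9%, 48.1% and 7.17% called, in the order of comparisons above, and lost no call of a named gene. Same-numbered libraries of 2 groups had correlations of -0.164 to 0.304 between their deviations from the group means, over 0.1 in 12 of 24 pairs. They were 0.1035 to 0.2559 for replicate 1 and 0.0809 to 0.3037 for replicate 2. For replicates 3 and 4 they were of both signs, -0.1638 to 0.2811 and -0.0676 to 0.1862. Libraries with different numbers were not compared, so these values do not decide whether the numbers pair the libraries. Counts under 20 limit the scarcest genes.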
